A study of Homo sapiens with 18 samples.

Results

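The genes described here are the stress-inducible HSP70 genes, the co-chaperones that work with them and the transcription factors that drive them. There were 9 of them among the 23686 gene symbols of the tables: HSPA6, HSPA1A, HSPA1B, HSPA1L, DNAJB1, BAG3, HSPB1, HSF1 and HSF2. They were taken by symbol, with HSPA1A and HSPA1B also added together because the genes are near-identical copies. The set was chosen by earlier results of these same libraries, in which HSPA6 and HSPA1A had the largest rises in TMD8 at 500 nM. For that reason the TMD8 values at 500 nM, and anything computed from them, are given for these genes as a description with no test.

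The RNA came from 2 established human lines of diffuse large B-cell lymphoma, TMD8 and OCI-Ly1, and was sequenced in paired ends after removal of ribosomal RNA. Each line was treated with 0.01% DMSO as vehicle, with 150 nM JIB-04 or with 500 nM JIB-04, and each of the 6 groups had 3 libraries. JIB-04 is a small molecule that inhibits Jumonji-domain histone demethylases, and the labels give no treatment time. OCI-Ly1 grew in IMDM and TMD8 in RPMI, so line and medium changed together and cannot be told apart, and each line is a single established line. The libraries are described as technical triplicates, with no word on separate cultures, so the p-values may cover only the spread of library preparation.

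HSP70 proteins are ATP-driven chaperones that bind unfolded stretches of other proteins. J-domain proteins such as DNAJB1 hand them substrates and start ATP hydrolysis, and exchange factors such as BAG3 release the nucleotide so that the cycle can restart. In unstressed cells HSF1 is held inactive by chaperones. When unfolded protein draws the chaperones away, HSF1 forms trimers and binds heat shock elements, arrays of inverted NGAAN units ahead of HSP70, DNAJB1 and HSPB1 genes. HSPA8, the constitutive cytosolic HSP70, is made without stress and is the usual reference for the inducible genes.

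The sequences just ahead of the genes that differ most in behaviour show where exact matches to heat shock cores lie in each. The 200 bases before the RefSeq start (GRCh38.p14, gene strand, 5′ to 3′) lie at chr1:161524340-161524539 (plus strand) for HSPA6, chr6:31815343-31815542 (plus) for HSPA1A, chr6:31827538-31827737 (plus) for HSPA1B, chr19:14518398-14518597 (minus) for the DNAJB1 start whose window holds heat shock cores, and chr7:76302473-76302672 (plus) for HSPB1. Capitals mark matches to GAANNTTC, TTCNNGAA or TATAAA on either strand.
HSPA6: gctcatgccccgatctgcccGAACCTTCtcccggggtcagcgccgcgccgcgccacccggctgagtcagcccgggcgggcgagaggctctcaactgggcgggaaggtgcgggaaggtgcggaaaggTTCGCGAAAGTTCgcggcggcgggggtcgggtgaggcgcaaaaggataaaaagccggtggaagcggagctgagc
HSPA1A: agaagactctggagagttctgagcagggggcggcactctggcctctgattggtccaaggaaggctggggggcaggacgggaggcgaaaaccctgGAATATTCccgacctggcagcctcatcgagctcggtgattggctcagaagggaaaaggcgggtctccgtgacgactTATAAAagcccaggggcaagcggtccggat
HSPA1B: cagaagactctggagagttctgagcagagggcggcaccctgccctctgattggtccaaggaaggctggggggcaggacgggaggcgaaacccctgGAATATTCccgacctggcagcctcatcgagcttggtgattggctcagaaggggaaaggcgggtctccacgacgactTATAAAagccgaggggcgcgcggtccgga
DNAJB1: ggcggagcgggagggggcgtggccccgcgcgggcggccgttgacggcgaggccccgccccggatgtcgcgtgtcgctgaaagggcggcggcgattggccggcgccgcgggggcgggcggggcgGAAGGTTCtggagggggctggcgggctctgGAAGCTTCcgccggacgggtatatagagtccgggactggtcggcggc
HSPB1: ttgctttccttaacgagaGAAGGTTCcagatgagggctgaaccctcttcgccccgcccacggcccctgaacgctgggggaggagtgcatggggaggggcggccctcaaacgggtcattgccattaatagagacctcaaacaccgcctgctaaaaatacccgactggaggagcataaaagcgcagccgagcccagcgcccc

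HSPA6 alone among these genes carried an exact 3-unit element, TTCGCGAAAGTTC, whose first base lies 74 bases before the start. It also had GAACCTTC at 180 bases. Units with a mismatch were not sought, so the other genes are not shown to lack a 3-unit element. Across all 35116 RefSeq promoter windows, a 3-unit element, GAANNTTC and TTCNNGAA overlapping in a shared TTC or GAA, was found in 0.441% of the 250 bases before the start. HSPA1A held GAATATTC at 106 bases and TATAAA at 30 bases before its start. HSPA1B held the same words at 105 and 29 bases, and the printed stretches of these copies matched at 188 of 201 aligned positions (93.5%). DNAJB1 had GAAGGTTC at 77 and GAAGCTTC at 47 bases, and HSPB1 had GAAGGTTC at 182 bases. GAANNTTC occurred in 5.78%, TTCNNGAA in 6.62% and TATAAA in 10.7% of all windows; the 3-unit element contains both inverted pairs. No GAANNTTC or TTCNNGAA was in the 250 bases before the starts listed for BAG3 and HSF2, which says only that these letters are not in those windows. In all, 8 of the 9 genes had a window, 11 windows together, and HSF1 had none. HSPA1L and HSPA1A start 260 bases apart and are transcribed away from each other, so their windows share 241 of 300 bases and the GAATATTC of HSPA1A is the one found 161 bases before HSPA1L.

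All 9 genes passed edgeR's low-count filter in both lines. HSPA6 in OCI-Ly1 passed only through its 500 nM libraries, so its values there at 500 nM are given with no test and it is left out of the counts of calls at that dose. HSPA1L in TMD8 reached the filter's cutoff in 1 DMSO library and in all 6 treated libraries. Without it the calls in TMD8 at 150 nM are the same, 3 higher and 3 lower, out of 8 genes. In OCI-Ly1 at 150 nM, 0 of the 9 rose and 0 fell, with 2 at an unadjusted p under 0.05 (edgeR), against 0.748% of 15638 tested genes called higher and 0.141% lower. DESeq2 also called 0 of them in either direction, and without the low-count filter HSPA1A was called lower (-0.79, adjusted p = 0.036). At 500 nM in OCI-Ly1, 2 of the 8 others rose (HSPB1, HSF1) and 3 fell (DNAJB1, HSF2, HSPA1A), where 27.7% of all genes were called higher and 25.9% lower. From 150 to 500 nM in OCI-Ly1, 1 of the 8 rose (HSF1) and 2 fell (DNAJB1, HSF2), beside 25.1% and 21.1% of all genes. In TMD8 at 150 nM, 3 rose (HSPA6, HSPA1A, HSPA1B) and 3 fell (HSPB1, HSF2, HSF1), beside 19.2% and 25% of 15363 genes. Nothing is read from counts this small beside such background shares, and the levels of each gene follow.

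**Figure D1:**
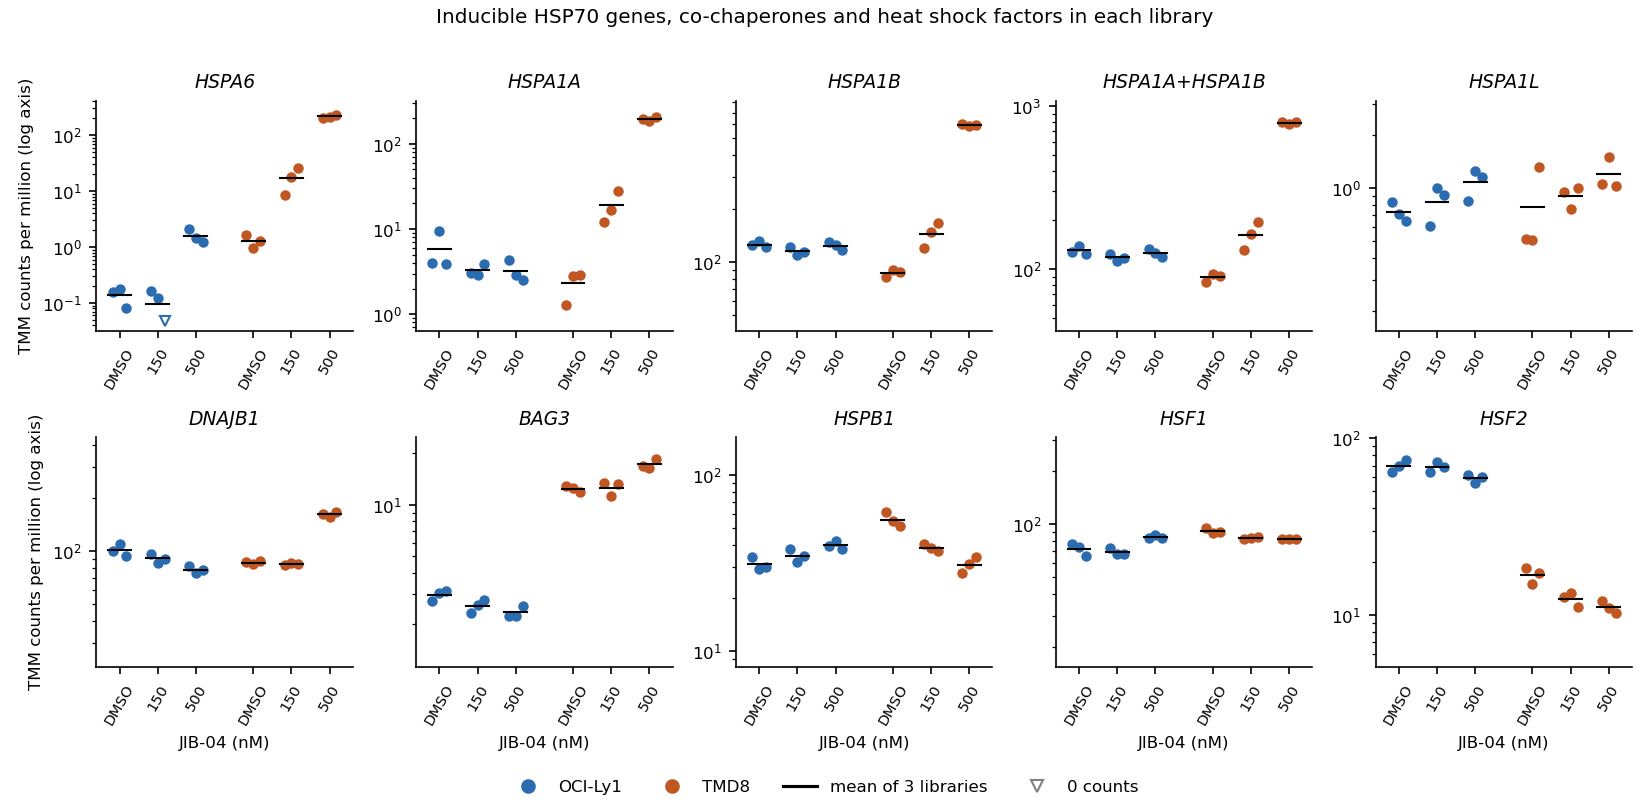
TMM-normalised CPM (log axis, whose span differs between panels) in each of the 18 libraries for the 9 genes and the sum HSPA1A+HSPA1B; points are libraries, black lines the mean of 3, and the open triangle is a library with 0 counts. HSPA6, HSPA1A and HSPA1B climb with dose in TMD8, while in OCI-Ly1 HSPA6 alone of these is higher at 500 nM.

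HSPA6, a strictly inducible HSP70 gene that most unstressed cells barely transcribe, showed the widest range of the set. In OCI-Ly1 its estimated counts were 4, 3 and 2 with DMSO and 4, 3 and 0 at 150 nM, both at about the limit of what these libraries can detect. At 500 nM they were 69.7, 37.0 and 37.7. The 500 nM libraries were all above the others, although the level was only 1.59 ± 0.44 CPM (counts scaled to the TMM-adjusted library total; mean ± SD, n = 3). Summed and rounded, 144 counts at 500 nM stood against 9 with DMSO, a ratio of 11.95 after scaling by the TMM-adjusted library totals. No interval is given for it, since the 500 nM libraries let the gene pass the filter. The fitted log2 fold change of HSPA6 was 3.52 (SE 0.49), and against 150 nM it was 3.90 (SE 0.51).

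In TMD8 the same gene started higher, at 1.65, 0.953 and 1.31 CPM with DMSO. At 150 nM it was 8.49, 18.2 and 25.7 CPM, so the libraries were uneven but all exceeded every DMSO library. The rise at 150 nM was 3.80 on the log2 scale (SE 0.35, adjusted p = 2.3e-07), a comparison that shares its DMSO libraries with the one by which the gene was chosen. At 500 nM the libraries were close together at 206, 215 and 226 CPM, which is 7.37 above DMSO on the log2 scale (SE 0.26), or 166-fold. The third 150 nM library was the highest of its group for HSPA6, HSPA1A and HSPA1B and was also the deepest of the 3. Without it the log2 change at 150 nM was 3.40 for HSPA6 (adjusted p = 1.4e-07), 2.63 for HSPA1A (adjusted p = 2.5e-08) and 0.76 for the HSPA1A+HSPA1B sum, all still past the edgeR threshold. Leaving out each library in turn gave 3.40 to 4.10 for HSPA6. A neighbouring pseudogene, HSPA7, shares 27.3% of the 101-base windows of the HSPA6 transcript, so reads could pass between them. HSPA7 was listed at 1.38 ± 0.04 TPM (SD, n = 3) with DMSO and 1.89 ± 0.05 TPM at 500 nM in TMD8, far below the 46.1 ± 4.9 TPM of HSPA6 at that dose. With DMSO the order was the other way, HSPA6 being at 0.361 ± 0.125 TPM in TMD8. The DMSO level of HSPA6 in TMD8, and the fold changes against it, may therefore depend on how reads were split between them. That split was not tested. In OCI-Ly1 with DMSO, HSPA7 had 0 counts in every library.

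HSPA1A and HSPA1B encode the major stress-inducible HSP70, and their proteins are all but the same. In GENCODE v29 (GRCh38, not the study's hg19 index), 1664 of the 2383 windows of 101 bases in HSPA1A-201 occur unchanged in HSPA1B, 69.8%. Single reads from those windows fit either copy, and how many read pairs were ambiguous in the study's index was not measured. The sum of the copies is therefore the safer value, and HSPA1L and HSPA6 shared 0 such windows with them. In OCI-Ly1 the sum was 127, 139.6 and 124 CPM in the DMSO libraries, 125, 112 and 118 at 150 nM, and 133, 126 and 119 at 500 nM. The 3 groups overlap, and the log2 change at 500 nM was -0.05 (SE 0.06, adjusted p = 0.54). Other scalings put that change at up to 0.09, still without a call.

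In TMD8 the sum behaved differently. It was 83.5, 92.9 and 90.6 CPM in the DMSO libraries, 131, 164 and 194 at 150 nM, and 801, 772 and 804 at 500 nM. No group overlaps another. The sum rose by 0.88 on the log2 scale at 150 nM (SE 0.09, adjusted p = 1.0e-06), and at 500 nM it was 3.15 above DMSO (SE 0.10), 8.90-fold. Tested between the lines at 150 nM in a fit of all 18 libraries, the change in OCI-Ly1 was 1.01 lower than in TMD8 (log2 difference -1.01, SE 0.12, adjusted p = 1.9e-06).

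The share of the summed counts assigned to HSPA1A also moved with dose in TMD8. It was 2.58% ± 0.89 (SD, n = 3) with DMSO, 11.3% ± 2.8 at 150 nM and 24.8% ± 0.9 at 500 nM, with no overlap between groups. In OCI-Ly1 it was 4.36% ± 2.15, 2.77% ± 0.45 and 2.55% ± 0.60, and the groups overlap. Taken singly, HSPA1A rose by 3.05 (SE 0.28, adjusted p = 2.5e-07) and HSPA1B by 0.74 (SE 0.08, adjusted p = 1.7e-06) in TMD8 at 150 nM. At 500 nM they were 6.37 (SE 0.23) and 2.78 (SE 0.08) above DMSO. Between the lines at 150 nM, the change in OCI-Ly1 minus that in TMD8 was -3.80 for HSPA1A (SE 0.46, adjusted p = 2.7e-06) and -0.85 for HSPA1B (SE 0.11, adjusted p = 4.3e-06).

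HSPA1A in OCI-Ly1 gave a fall at 500 nM of -0.80 (SE 0.29, adjusted p = 0.027) that rests on 1 library. The second DMSO library had 9.57 CPM of HSPA1A against 4.005 and 3.83 in the others, and 6.85% of the summed counts. Without it the change was -0.27 (adjusted p = 0.32), and the call was also lost without the second (adjusted p = 0.080) or the third (adjusted p = 0.11) library at 500 nM and on log2(TPM + 1) (adjusted p = 0.14). HSPA1B, the larger of the copies, differed by -0.02 (SE 0.06, adjusted p = 0.80) in the same comparison.

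**Figure D2:**
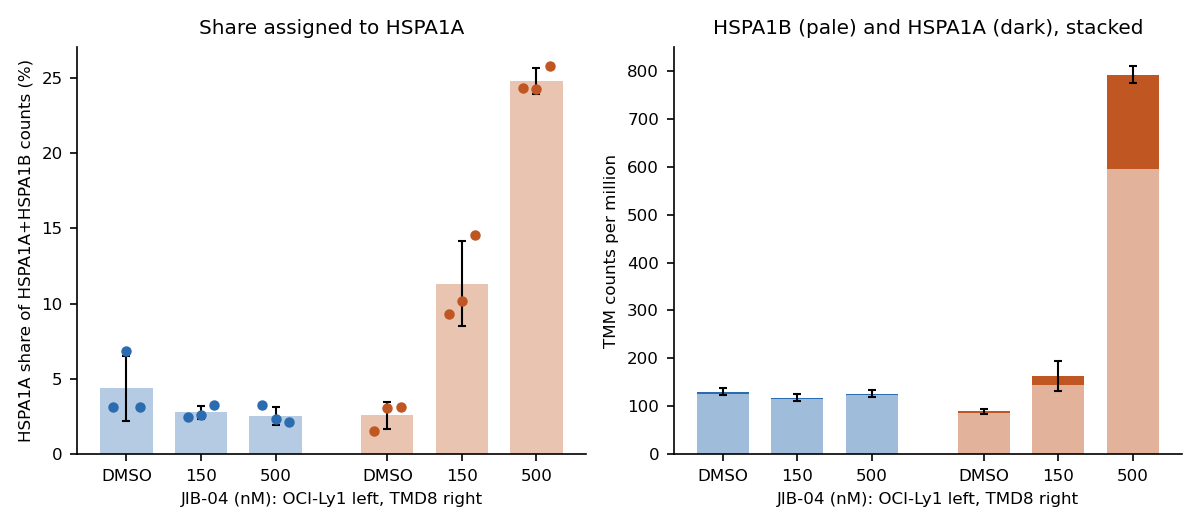
Left, the percentage of HSPA1A+HSPA1B estimated counts assigned to HSPA1A (bars, mean; points, libraries; error bars, SD of 3). Right, mean TMM-normalised CPM of HSPA1B and HSPA1A stacked, with the SD of their sum; in TMD8 the stack reaches 792 CPM at 500 nM and the HSPA1A share 24.8%.

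HSPA1L, which sits beside HSPA1A and is known mainly from the testis, stayed near the bottom of the range. Its group means ran from 0.727 to 1.19 CPM over the 6 groups, from 8.01 to 35.0 estimated counts a library. It passed the test in none of the tested comparisons: at 500 nM in OCI-Ly1 the change was 0.55 (SE 0.32, adjusted p = 0.16), and at 150 nM in TMD8 it was 0.18 (SE 0.37, adjusted p = 0.71). On the log2(TPM + 1) scale the first of these reached 0.23 with an adjusted p of 0.045. The shared stretch ahead of HSPA1L and HSPA1A lies between 2 genes whose log2 changes in TMD8 at 500 nM were 6.37 for HSPA1A and 0.58 (SE 0.36) for HSPA1L. The HSPA1L values in TMD8 lean on the third DMSO library, which had 26.0 estimated counts against 8.01 and 9 in the others. Leaving out single libraries gave 0.34 to 1.23 at 500 nM, the highest without that library, and -0.06 to 0.83 at 150 nM.

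Set against HSPA8 on the TPM scale, which corrects for transcript length, the inducible genes changed rank. HSPA1A, HSPA1B and HSPA6 together made 4.36% ± 0.24 (SD, n = 3) of the HSPA8 level in OCI-Ly1 with the vehicle, 4.38% ± 0.33 at 150 nM and 10.02% ± 0.52 at 500 nM. In TMD8 they made 4.28% ± 0.52, 14.6% ± 4.6 and 118% ± 2. The inducible sum in TMD8 at 500 nM was 226.3 ± 17.0 TPM beside 192 ± 13 TPM of HSPA8. HSPA8 fell in both lines: by 1.23 in OCI-Ly1 at 500 nM (SE 0.04, adjusted p = 1.4e-13) and by 1.32 in TMD8 (SE 0.07, adjusted p = 3.5e-11). In OCI-Ly1 the larger ratio at 500 nM goes with the lower HSPA8 level, since the inducible sum was 68.6 ± 3.0 TPM with DMSO and 73.7 ± 2.9 at 500 nM.

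**Figure D3:**
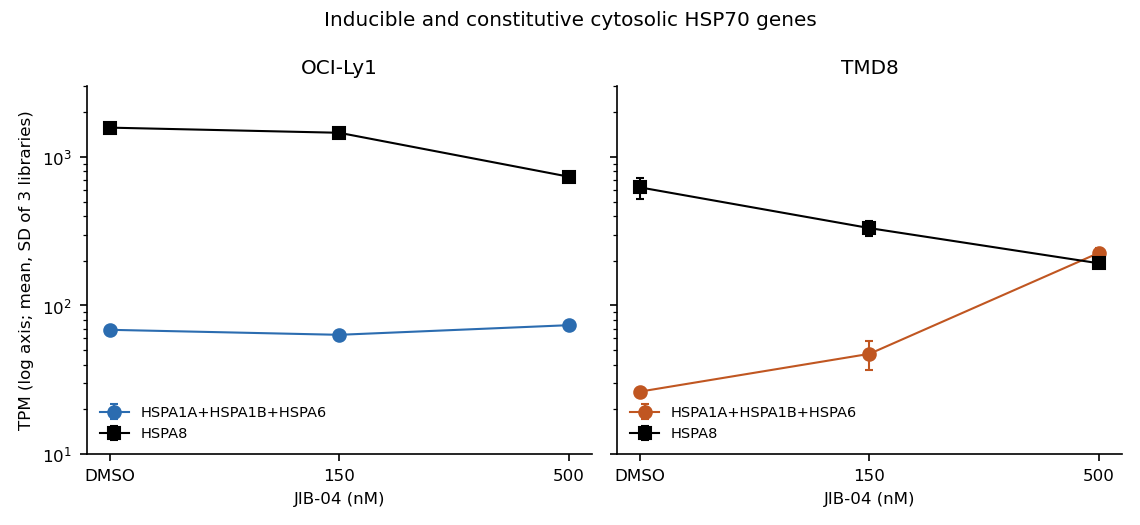
Level of HSPA1A+HSPA1B+HSPA6 (circles) and of HSPA8 (squares) in TPM on a log axis, mean and SD of 3 libraries per dose. In TMD8 the lines cross between 150 and 500 nM; in OCI-Ly1 HSPA8 comes down from 1574 to 736 TPM and the inducible genes stay between 63.5 and 73.7 TPM.

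DNAJB1, the J-domain partner that the heat shock response induces along with HSP70, lay on opposite sides of DMSO in the lines at the high dose. In OCI-Ly1 it was 100.04, 110.1 and 93.1 CPM in the DMSO libraries, 96.4, 85.2 and 90.6 at 150 nM, and 82.3, 74.7 and 77.5 at 500 nM. The 500 nM libraries were below all others, a fall of 0.37 (SE 0.07, adjusted p = 2.0e-04) against DMSO. In TMD8 it was 86.3, 83.9 and 87.9 CPM with DMSO and 83.7, 85.6 and 84.9 at 150 nM, a change of -0.02 (SE 0.05, adjusted p = 0.73), at the dose where HSPA6 and the HSPA1A+HSPA1B sum rose. At 500 nM it was 163, 157 and 166 CPM, 0.91 above DMSO (SE 0.04).

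BAG3, the exchange factor that also feeds HSP70 clients to autophagy, was scarce in OCI-Ly1 and more plentiful in TMD8. It was 2.98 ± 0.22 CPM (SD, n = 3) in OCI-Ly1 with DMSO and 2.35 ± 0.19 at 500 nM, and the groups did not overlap, but the change of -0.34 (SE 0.18) missed the threshold (adjusted p = 0.12). In TMD8 its libraries had 13.0, 12.4 and 11.8 CPM in the DMSO libraries, 13.4, 11.2 and 13.2 at 150 nM, and 16.8, 16.3 and 18.6 at 500 nM. The first groups overlap and the change at 150 nM was 0.03 (SE 0.10, adjusted p = 0.85). At 500 nM BAG3 was 0.47 above DMSO (SE 0.09). That value depended on the scale: on log2(TPM + 1) it was 0.08 for BAG3 and 0.52 for DNAJB1. The median of all genes moved to -0.22 on that scale.

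HSPB1, the small heat shock protein HSP27, went down with dose in TMD8 and up in OCI-Ly1. In TMD8 it was 61.1, 54.5 and 51.5 CPM in the DMSO libraries, 40.4, 38.3 and 37.1 at 150 nM, and 27.6, 31.0 and 34.2 at 500 nM, with no overlap between groups. It fell by 0.53 at 150 nM (SE 0.08, adjusted p = 2.3e-05), 1.44-fold, and at 500 nM it was 0.86 below DMSO (log2 change -0.86, SE 0.08). In OCI-Ly1 it was 34.2, 29.1 and 29.9 CPM with DMSO and 39.4, 42.1 and 37.8 at 500 nM, a rise of 0.35 (SE 0.08, adjusted p = 0.0013). The lines differed in the change at 150 nM by 0.69 (SE 0.12, adjusted p = 1.4e-04), although in OCI-Ly1 alone the change at that dose was 0.16 (SE 0.08, adjusted p = 0.54). HSPB1 therefore parted from HSPA6, HSPA1A and HSPA1B in TMD8, where the latter were higher in every treated library than in any DMSO library.

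The transcript of HSF1, the factor itself, changed little. It was 72.4 ± 6.0 CPM (SD, n = 3) in OCI-Ly1 with DMSO and 84.1 ± 2.1 at 500 nM, a rise of 0.22 (SE 0.06, adjusted p = 0.0089) that missed the threshold without the third DMSO library (0.15, adjusted p = 0.068). In TMD8 it was 91.1 ± 3.5 with DMSO and 83.5 ± 1.2 at 150 nM, a fall of 0.12 (SE 0.05, adjusted p = 0.035). That call for HSF1 was lost with library size alone as the scaling (-0.04, adjusted p = 0.45), in DESeq2 (adjusted p = 0.091) and when any of 5 of the 6 libraries was left out. The TMD8 level at 500 nM was 82.5 ± 0.1 CPM. HSF1 is known to be controlled largely at the level of its protein, which was not measured here.

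HSF2, a relative that can pair with HSF1 at the same elements, was well expressed in OCI-Ly1 and low in TMD8. In TMD8 it was 18.5, 14.9 and 17.2 CPM in the DMSO libraries, 12.6, 13.3 and 11.1 at 150 nM, and 11.9, 10.9 and 10.2 at 500 nM. All treated libraries were below the DMSO libraries, a fall of 0.46 at 150 nM (SE 0.10, adjusted p = 0.0013) and a level 0.60 lower at 500 nM (log2 change -0.60, SE 0.11). In OCI-Ly1 it was 70.0 ± 5.2 CPM (SD, n = 3) with DMSO, 68.8 ± 4.2 at 150 nM and 59.2 ± 2.9 at 500 nM, a fall of 0.24 at the high dose (SE 0.07, adjusted p = 0.0066). On log2(TPM + 1) the HSF2 change in OCI-Ly1 was -0.08 (adjusted p = 0.36), a scale on which the median of all genes moved to 0.10. With library size only it was -0.15 (edgeR, adjusted p = 0.061), so the call rests on the scaling.

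**Figure D4:**
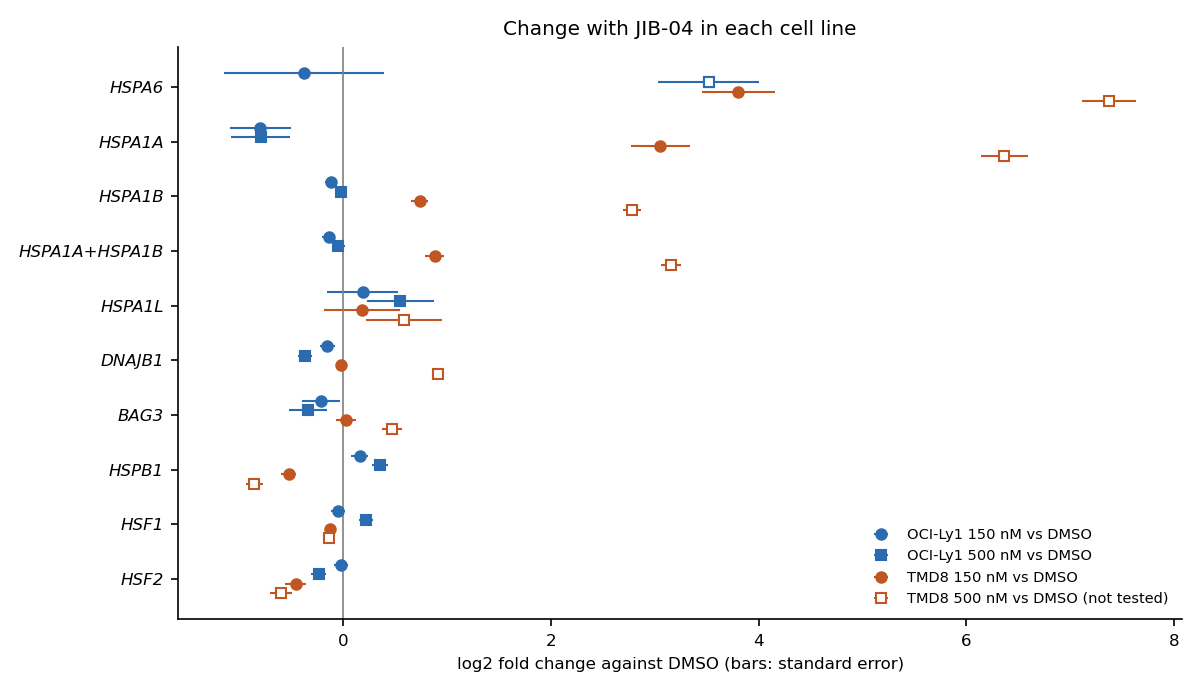
Log2 fold change against DMSO with its standard error, from the edgeR fits of 9 libraries per line; circles are 150 nM, squares 500 nM, blue OCI-Ly1, orange TMD8, and open squares mark what was not tested (TMD8 at 500 nM, and HSPA6 in OCI-Ly1 at 500 nM). HSPA6, HSPA1A and HSPA1B lie far to the right for TMD8, and HSPB1 lies to the left for TMD8 and to the right for OCI-Ly1.

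In the test of the difference between lines at 150 nM, 2 of the 9 genes had the higher change in OCI-Ly1 (HSPB1, HSF2) and 2 the lower (HSPA1A, HSPA1B), beside 15% and 8.33% of 16604 genes. HSF2 differed by 0.44 (SE 0.12, adjusted p = 0.0089), or by 0.36 (adjusted p = 0.060) without the third TMD8 library at 150 nM. HSPA6 had the largest difference, -4.15, but with counts of 0 to 4 in OCI-Ly1 its SE was 1.59 and it missed the threshold (adjusted p = 0.060, edgeR). DESeq2 gave -4.12 for HSPA6 with an adjusted p of 6.7e-06. At 500 nM the difference was -3.82 for HSPA6, -3.17 for the HSPA1A+HSPA1B sum, -1.25 for DNAJB1, -0.78 for BAG3 and 1.24 for HSPB1, as a description. TMD8 DMSO libraries enter all of these comparisons.

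Ranked by TPM within a group, HSPA1B was first in OCI-Ly1 with DMSO at 65.4 ± 1.3 (SD, n = 3). DNAJB1 came next (60.3 ± 3.8, overlapping HSPA1B), then HSPB1 (52.2 ± 4.6), HSF1 (44.9 ± 2.9) and HSF2 (36.3 ± 2.9), none overlapping the next below. HSPA1A (3.15 ± 1.70), BAG3 (1.53 ± 0.13), HSPA1L (0.379 ± 0.046) and HSPA6 (0.0684 ± 0.0238) followed. At 500 nM in OCI-Ly1 the order changed near the top, with HSPB1 at 73.5 ± 4.9 and HSPA1B at 70.9 ± 2.4 overlapping, and at the bottom, where HSPA6 (0.861 ± 0.209) overlapped HSPA1L (0.620 ± 0.140). In TMD8 with DMSO, HSPB1 led at 52.5 ± 9.0, then HSF1 (31.6 ± 3.9) and DNAJB1 (28.6 ± 2.5), which overlapped, and HSPA1B (25.3 ± 1.1). HSF2 (5.08 ± 0.92), BAG3 (3.56 ± 0.46), HSPA1A (0.691 ± 0.223), HSPA6 (0.361 ± 0.125) and HSPA1L (0.220 ± 0.119) came after, the last 3 overlapping in turn. At 500 nM in TMD8 HSPA1B led at 134 ± 8, and HSPA6 (46.1 ± 4.9), HSPA1A (46.1 ± 4.7) and DNAJB1 (41.5 ± 3.1) overlapped in second place. HSPB1 was then at 22.5 ± 3.7 and HSF1 at 22.0 ± 1.4, overlapping, with BAG3 (3.81 ± 0.47), HSF2 (2.42 ± 0.16) and HSPA1L (0.267 ± 0.062) last.

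The other genes of the heat shock and chaperone system were described through a list of 47, of which 42 passed the filter. CRYAB, HSPB2, HSPB8, HSPB9 and HSF5 did not, with at most 10 counts in any library. In OCI-Ly1 at 150 nM, 0 of the 42 were called in either direction, with 11 at an unadjusted p under 0.05 (edgeR). At 500 nM in OCI-Ly1, 11 rose and 22 fell (median log2 change -0.18 beside -0.003 over all genes), where 27.7% of all genes were called higher and 25.9% lower. In TMD8 at 150 nM, 7 rose and 28 fell (median -0.34 beside 0.01), where the shares over all genes were 19.2% and 25%. In TMD8 at 500 nM, 11 rose and 29 fell (median -0.56 beside 0.04), where they were 29.9% and 30.7%. From 150 to 500 nM in TMD8, 8 rose and 22 fell, beside 13.7% and 15%. HSPB6 in both lines and HSPA2 in TMD8 passed the filter only through treated libraries. Without them the rises were 10 of 41 in OCI-Ly1 at 500 nM and, in TMD8, 6 of 40 at 150 nM, 9 of 40 at 500 nM and 7 of 40 between the doses, with the falls as given and medians of -0.19, -0.36, -0.59 and -0.22. Between the lines, 27 of the 42 had the higher and 4 the lower change in OCI-Ly1 at 150 nM, beside 15% and 8.33% of all genes, and 25 and 6 at 500 nM, beside 28.2% and 18.1%.

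HSP90 genes and their partners fell in most comparisons, but in OCI-Ly1 at 150 nM 0 of 9 were called (median -0.04). At 500 nM 8 of 9 fell in OCI-Ly1 (median -0.57), where 25.9% of all genes were called lower. At that dose 9 of 9 fell in TMD8 (median -0.82), beside 30.7% of all genes. HSP90AB1, the constitutive HSP90, fell by 1.02 in OCI-Ly1 (SE 0.04, adjusted p = 1.2e-12), and FKBP4, an immunophilin of HSP90, fell by 1.23 in TMD8 (SE 0.06, adjusted p = 1.2e-11). The mitochondrial chaperonin pair fell in both lines, with HSPE1 at -0.85 (SE 0.05, adjusted p = 5.2e-10) in OCI-Ly1 and -1.15 (SE 0.07, adjusted p = 8.4e-11) in TMD8. All 6 exchange factors and HSP70 partners fell in TMD8 at both doses, where 25% and 30.7% of all genes were called lower. In OCI-Ly1 at 500 nM, 2 of these 6 fell, where 25.9% of all genes did, and the class was not tested between the lines. HSP90AA1 and HSPH1, which heat shock also induces, were among the genes that fell in TMD8 at 500 nM (HSP90AA1 -0.82, adjusted p = 2.4e-09; HSPH1 -0.85, adjusted p = 3.1e-09), the dose at which HSPA6 was highest; these 2 and HSPA2 below were picked after their values were seen.

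Of the 7 other genes known as HSF1 targets, 4 rose and 1 fell in OCI-Ly1 at 500 nM, beside 27.7% and 25.9% of all genes. In TMD8 at that dose 4 rose and 2 fell, beside 29.9% and 30.7%. IER5, an HSF1 target known to act back on HSF1, rose in both lines, by 1.88 in OCI-Ly1 (SE 0.08, adjusted p = 1.9e-12; 16.1 ± 0.9 CPM with DMSO, 59.0 ± 5.0 treated) and by 1.13 in TMD8 (SE 0.07, adjusted p = 2.5e-10; 150.1 ± 15.6 CPM with DMSO, 329 ± 11 treated). SERPINH1, the collagen chaperone HSP47, rose by 3.08 in OCI-Ly1 (SE 0.24, adjusted p = 7.9e-09) from 0.623 ± 0.055 to 5.32 ± 0.21 CPM, and by 0.32 (SE 0.06, adjusted p = 2.8e-04) in TMD8. Other rises were called in both lines. ZFAND2A rose by 1.08 (SE 0.10, adjusted p = 4.7e-08) in TMD8 and by 0.83 (SE 0.13, adjusted p = 3.1e-05) in OCI-Ly1. HSF4 rose by 1.42 (SE 0.12, adjusted p = 1.5e-08) in TMD8 and by 1.43 (SE 0.20, adjusted p = 1.3e-05) in OCI-Ly1. DNAJB2, a J-domain protein, rose by 0.88 (SE 0.07, adjusted p = 6.5e-09) in OCI-Ly1 and by 1.07 (SE 0.09, adjusted p = 2.1e-08) in TMD8. HSPA2, an HSP70 best known from the testis, was 3.01 above DMSO in TMD8 at 500 nM but at only 1.71 CPM, and is given with no test for the reason above.

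**Figure D5:**
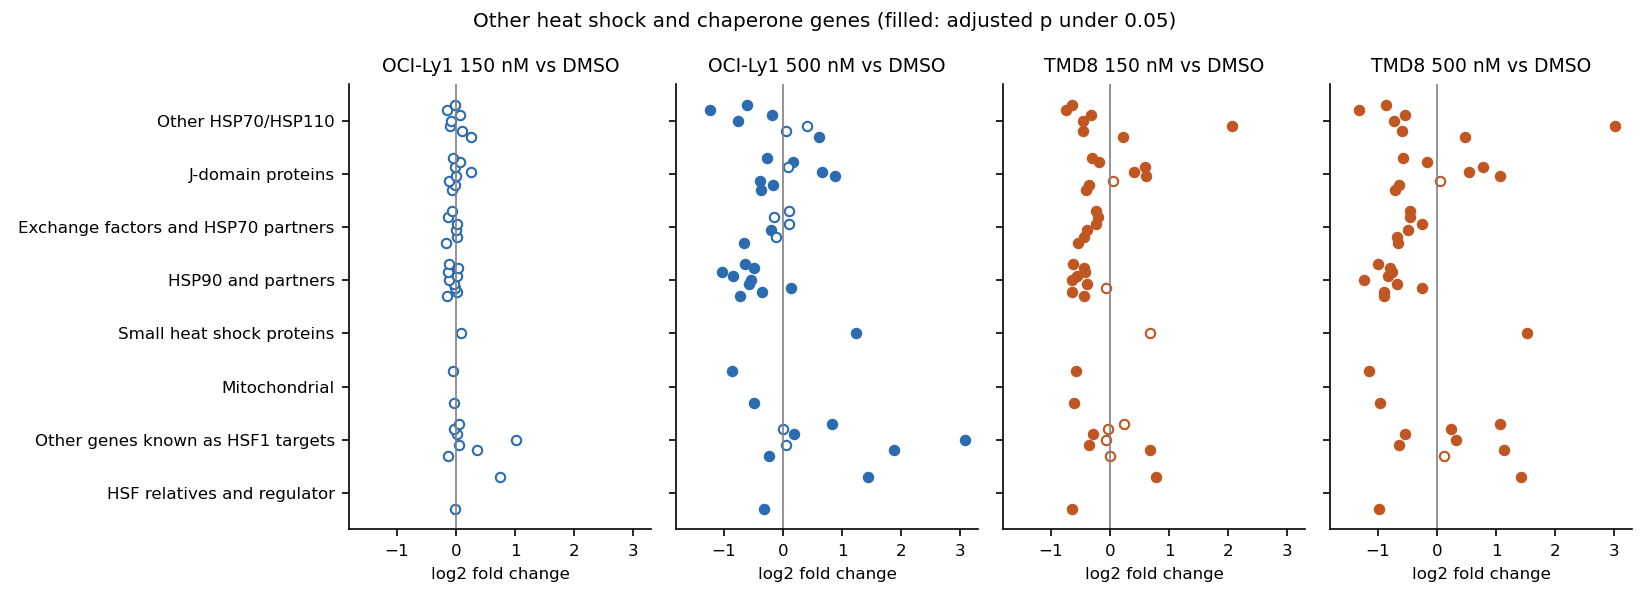
Log2 fold change against DMSO of the 42 tested genes of the wider chaperone list, by class (rows) and comparison (panels); filled points passed an adjusted p of 0.05 in edgeR and each point is a gene. HSP90 partners and mitochondrial chaperones lie left of 0 at 500 nM in both lines, apart from CDC37 at 0.15 in OCI-Ly1.

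Other genes with a like pattern were sought by the root mean square difference of 4 log2 changes (both doses, both lines) over 12434 genes. Nearest to the HSPA1A+HSPA1B sum were GOLGA8F (0.25), LINC00624 (0.39) and FGR (0.43). FGR, a SRC-family kinase, had log2 changes of 1.53 and 2.64 in TMD8 and -0.16 and -0.30 in OCI-Ly1. DNAJB1 was closest to FIBIN (0.12), LRRC45 (0.15) and C3orf20 (0.16). The nearest genes to BAG3 were MVD (0.046), RBM38 (0.053) and FUT2 (0.066). For HSF2 they were ZC3H15 (0.023), MDH1 (0.025) and PSIMCT-1 (0.027). The measure depends on the size of the changes, which at 500 nM in TMD8 were 3.12 for the sum and 0.44 for BAG3. Distances are therefore not compared between these genes.

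The genes on either side of the HSP70 loci were looked at after the values above were known. Of the 3 tested genes before HSPA1L and the 3 after HSPA1B, LSM2 and VARS fell in TMD8 at 500 nM, by 0.61 (SE 0.07, adjusted p = 1.4e-06) and 0.87 (SE 0.06, adjusted p = 4.0e-10). C6orf48 rose by 0.51 (SE 0.07, adjusted p = 4.3e-06) there and by 1.47 (SE 0.07, adjusted p = 6.2e-12) in OCI-Ly1. Around HSPA6, SDHC and FCGR2B fell in both lines.

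A library held between 17579732 and 32651115 estimated counts for OCI-Ly1, and between 9550092 and 20509500 for TMD8, and no pair of libraries in a group agreed within sampling noise (chi-square per degree of freedom at least 1.62). All 6 B-cell markers had a median of at least 1 TPM in both lines (summed 875 to 990.3 TPM in OCI-Ly1 and 538 to 933 in TMD8). Summed T-cell markers reached 28.9 TPM in OCI-Ly1, led by CD3G, and 2.02 in TMD8, and fibroblast markers 0.384 and 3.26 TPM. Epithelial markers reached 19.9 TPM in OCI-Ly1, led by KRT8, and 18.8 in TMD8, led by CDH1, and myeloid markers 3.78 and 11.01 TPM, led by CD68. The part of these cell markers in the results was not tested. Values are relative to each library's total, so less RNA per cell, or fewer cells of a kind, cannot be told apart from a change in a gene. Scaling moved the calls over all genes: OCI-Ly1 at 500 nM had 4330 higher and 4057 lower, but 5472 and 3080 with library size alone and 2902 and 6079 on centred log2(TPM + 1). TMD8 at 500 nM had 4601 and 4723, but 1751 and 7581 on log2(TPM + 1), where the median of all genes shifted to -0.22. TMD8 at 150 nM had 2955 and 3835, or 1129 and 4183 on that scale. From 150 to 500 nM the calls were 3930 and 3302 in OCI-Ly1 (2519 and 5403 centred) and 2111 and 2298 in TMD8 (464 and 3980 on log2(TPM + 1)). Between lines they were 2484 and 1383 at 150 nM (3432 and 595 on that scale, 1715 and 1937 with library size alone) and 4690 and 3009 at 500 nM (9104 and 1112 on that scale).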

How the data were processed

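Bulk RNA sequencing covered 18 libraries, 3 in each of 6 groups. The authors deposited a table of estimated counts and a table of TPM (transcript abundance corrected for length and depth) for each cell line, 4 tables with the same symbols. Per the submitters' processing notes the tools were kallisto 0.46.0, R 4.3.1 and DESeq2 1.40.2, with the build hg19. The index, annotation and step from transcripts to genes are not given in the sources used here. Deposited TPM values were used for levels and in alternatives.

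Estimated counts were rounded to whole numbers and tested with edgeR 4.0.16 in R 4.3.3: TMM scaling, filterByExpr by group, the quasi-likelihood F test, and Benjamini-Hochberg adjustment over all genes tested in a comparison, with calls at an adjusted p under 0.05. The 9 libraries of a line were fitted together, and all 18 for the difference between lines. HSPA1A and HSPA1B were also replaced by their sum and refitted. Standard errors are the log2 fold change over the root of F. Alternatives were other size factors, no filter, DESeq2 1.42.0, limma 3.58.1 on log2(TPM + 1) and log2(TPM + 0.1), a replicate block, only the groups compared, each library left out, and, added after seeing the data, centred log2(TPM + 1).

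All 9 genes are named. From the wider list the 3 largest called rises and falls per line at 500 nM with at least 5 CPM in the higher group are named, and the 3 nearest genes by pattern. The genes and lists were chosen with earlier results of these data known. Promoter sequences are from RefSeq (GRCh38.p14) and transcripts from GENCODE v29, a newer build than the study's, so coordinates belong to those sources. One result is not reported here.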

Additional observations from a re-analysis of the deposited data

Results flagged for a closer look

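Several genes responded differently in the lines. At 150 nM the change in OCI-Ly1 minus that in TMD8 passed the edgeR test for HSPA1A (-3.80, SE 0.46, adjusted p = 2.7e-06), HSPA1B (-0.85, SE 0.11, adjusted p = 4.3e-06), their sum (-1.01, SE 0.12, adjusted p = 1.9e-06), HSPB1 (0.69, SE 0.12, adjusted p = 1.4e-04) and HSF2 (0.44, SE 0.12, adjusted p = 0.0089). The counts of HSPA1A and HSPA1B can pass into each other, so the sum is the value to use. Both the line and its medium differ here and cannot be told apart.

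At 500 nM every library of one line moved one way against DMSO and every library of the other moved the opposite way for DNAJB1 (-1.25), BAG3 (-0.78), HSPB1 (1.24) and HSF1 (0.39). These 4 differences were not tested, because the TMD8 values at that dose chose the genes. How many of all genes split the lines in this way was not counted, so nothing is read from there being 4. Shares of genes called by adjusted p are a different measure and do not stand in for that count. At 500 nM 27.7% of all genes were called higher and 25.9% lower in OCI-Ly1, and 29.9% and 30.7% in TMD8. BAG3 in OCI-Ly1 missed the edgeR threshold at this dose (adjusted p = 0.12). The HSF1 rise in OCI-Ly1 missed it without the third DMSO library (adjusted p = 0.068).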

How the results depend on the processing

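Of the results that answer a comparison (counts of genes called, and the HSPA1A+HSPA1B sum), 325 values under alternatives stayed on the same side of the threshold or within 1.5 times, 23 moved and 3 became calls, and none turned direction as a called value. With library size only, log2(TPM + 1) and log2(TPM + 0.1), the sum in OCI-Ly1 at 500 nM against DMSO was 0.039, 0.087 and 0.088, and at 500 nM against 150 nM it was called at 0.17 (adjusted p = 0.024), 0.20 (0.016) and 0.20 (0.017). In OCI-Ly1, 500 nM against 150 nM, those 3 settings called 5039, 4961 and 4922 of 15638 genes higher and 2383, 1860 and 1854 lower. Of the 9 genes they called 4 higher and 0 lower. The 4 include HSPA6, which passed the filter only through its 500 nM libraries, so nothing is read from its call. At 500 nM against DMSO both TPM scales called 1 lower, HSPA1A and HSF2 dropping out, and at 150 nM no filter called 1 lower. Scaling shifted the median of all genes by over 0.1: in OCI-Ly1 at 500 nM it was 0.10 on log2(TPM + 1) and -0.12 once centred, in TMD8 at 500 nM -0.22 and, with library size only, 0.13, and between lines at 500 nM 0.38 on log2(TPM + 1).

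Leaving out a library gave 0 to 2 genes called lower in OCI-Ly1 at 500 against 150 nM (0 without the second 500 nM library, 1 without the second 150 nM library) and 1 to 2 called higher between lines at 150 nM (1 without the third TMD8 library at 150 nM). Of the wider list in OCI-Ly1 at 150 nM it gave 0 to 2 higher (2 without the first 150 nM library) and 0 to 1 lower (1 without the first or the third), and library size only gave 1 higher. On log2(TPM + 1) the list's higher calls were 17 in OCI-Ly1 and 7 in TMD8 at 500 nM, and 3 in TMD8 from 150 to 500 nM. The cause was not tested for any of these.

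Replicate numbers shared by groups pair nothing by the labels, and same-numbered libraries did not deviate together (correlations of -0.05 to 0.15 over 6 pairs of groups, none with all 3 over 0.1). With the replicate block the wider list had 1 higher in OCI-Ly1 at 150 nM, HSPB1 became a call at 500 against 150 nM in OCI-Ly1 (0.20, adjusted p = 0.032), HSPA6 between lines at 150 nM (-4.15, adjusted p = 0.029), and the sum in TMD8 at 150 nM stayed at 0.87. For single genes 1079 values were unchanged by these measures, 105 moved, 22 became calls and 30 were lost, chiefly for HSPA1A, HSF1 and HSF2 as given with each. Few counts a library lie behind HSPA6 in OCI-Ly1 and HSPA1L in both lines.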
